A study of Homo sapiens with 4 samples.

Results

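The genes described here are 33 human genes of autophagy and lysosome positioning. They were listed by function, with earlier results of these data known, and KXD1 is the only subunit of its complex among them. The list holds 7 genes of initiation, 5 of membrane supply and phosphoinositide binding, 10 of the conjugation machinery, 4 encoding ubiquitin-like proteins of the ATG8 family, 3 cargo receptors and 4 lysosome genes, the last including the positioning gene KXD1. All 33 had a named probe among the 19090 genes named on the array. The 31 that exceeded a fixed signal level were compared, as part of 10666 compared genes. ATG4B and ATG5 lay below that level.

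The cells were labelled HepG2, a human line derived from a liver tumour, and no gene in them was stated to be altered. They received, with the same transfection reagent, a control RNA duplex with no match in the human genome (NC), a duplex imitating the microRNA miR-214 (miR-214 mimic), or a short interfering duplex that targets PVT1, a long noncoding RNA (siPVT1-1 or siPVT1-2). Total RNA was hybridised to OneArray Plus chips in 1 colour, with 1 array for each of the 4 groups. The series title places PVT1 and miR-214 in hepatocellular carcinoma.

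Autophagy encloses cytoplasm in a double membrane, the autophagosome, which fuses with a lysosome, where the content is digested. A kinase complex and a lipid kinase complex start the membrane, ubiquitin-like proteins are then coupled to its lipid, and cargo receptors link selected material to those proteins. Lysosomes move along microtubules. The BORC complex on their surface recruits the small GTPase ARL8, which couples them to kinesins that carry them toward the cell edge.

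With 1 array per group no difference has a replicate check, and no p-value is given. A difference is the normalized log2 intensity on one array minus that on another for the same probe, and the words higher and lower are used for a called gene when it was at least 2-fold. All differences from NC share the same single NC array, so a spot that read high or low on that array would move all 3 of them together, and this cannot be told apart from an effect common to the 3 duplexes. The deposited intensities had a median of 784.1 to 926.9 per array over 28264 probes. The siPVT1-1 and siPVT1-2 arrays differed by a median of 0.18 in size on the log2 scale, and 95% of compared genes differed by less than 0.53. Of 8 hepatocyte markers with a named probe, 2 exceeded the signal level. The albumin (ALB) and alpha-fetoprotein (AFP) probes lay at percentiles 13.2 and 27.8 of the 19090 named genes, each ranked by its brightest probe. Of 6 fibroblast markers 3 exceeded it, with LUM and DCN at percentiles 97.9 and 91.0 and COL1A1 at 75.2, while COL1A2 lay at 13.4 and COL3A1 and POSTN at the floor on every array. Of 4 other epithelial markers 2 exceeded it, KRT7 at 96.1 and KRT14 at 82.8, and of 4 blood markers 1 did. The brightest probes of ALB, AFP, LUM, DCN and KRT7 differed from NC by at most 1.34-fold on any treated array. Second probes of LUM and DCN, also above the signal level, gave log2 differences of 0.54 and 0.55 with the mimic. TTR, a hepatocyte marker below that level, gave -0.78 with the mimic, -1.15 with siPVT1-1 and 0.26 with siPVT1-2. The cell label is used as given. In RNA from a whole culture, fewer cells of a kind and less RNA per cell cannot be told apart.

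The mature strands of miR-214 are shown because the mimic imitates this microRNA. The labels do not say which strand the duplex was built to deliver. Capitals mark the seed, bases 2 to 8 from the 5′ end, and the sequences are RefSeq's, from chr1:172138816-172138837 (3p) and chr1:172138857-172138878 (5p), minus strand, GRCh38.p14. Sites for these seeds in the transcripts of the 33 genes were not analysed here.
hsa-miR-214-3p: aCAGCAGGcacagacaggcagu
hsa-miR-214-5p: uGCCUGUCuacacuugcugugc

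Most of the 31 compared genes lay close to their NC level on every treated array, and 3 stood 2-fold or more away on at least 1 of them. KXD1 was higher on all 3 treated arrays. OPTN was lower with the miR-214 mimic (-1.13) and lay just inside 2-fold with the siRNAs (-0.99 and -0.96). MAP1LC3B was lower with both siRNAs (-1.08 and -1.01) and lay at -0.90 with the mimic. Of the 31, 1 (KXD1) was higher and 1 (OPTN) lower with the mimic, beside 1.95% and 2.84% of all compared genes. With siPVT1-1, 1 was higher and 1 lower, beside 1.25% and 1.72% of all compared genes. With siPVT1-2 the counts were again 1 and 1, beside 1.33% and 1.2%. A single gene of 31 is close to what these shares give for a list of this size, so the counts do not set the list apart from other genes. The genes that were higher on all 3 treated arrays made up 0.516% of those compared and included KXD1. By the brightest probe of each gene, the 0.609% that were lower on all 3 included none of the 31. A second OPTN probe was past 2-fold on all 3, at -1.31, -1.23 and -1.16.

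**Figure D1:**
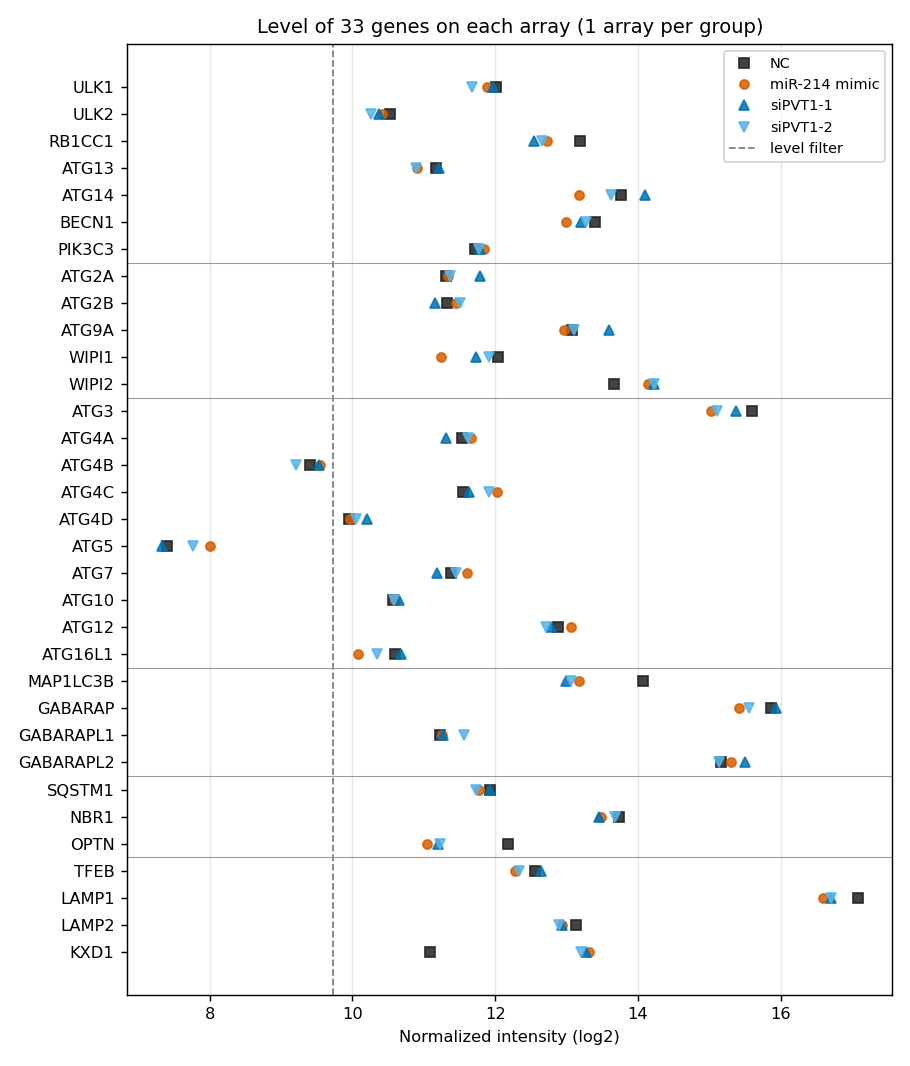
Normalized log2 intensity (x axis) of the 33 genes (rows, ordered by role) on the 4 arrays, 1 point per array. The dashed line is the signal level of 9.72, which ATG4B and ATG5 did not exceed, and the NC point of KXD1 lies at 11.09, apart from its treated points at 13.20 to 13.31.

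The middle of the list moved little. The median difference of the 31 genes was -0.12 with the mimic, 0.00 with siPVT1-1 and -0.14 with siPVT1-2 (log2), beside -0.02, 0.01 and -0.01 for all compared genes. Of the 31, 12 lay below their NC level on all 3 treated arrays by any margin, or 38.7% beside 30.8% of all compared genes. Another 8 lay above it on all 3, or 25.8% beside 30.0%. No replicate separates these shares from array to array variation.

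Initiation depends on the ULK kinase complex. ULK1 and ULK2 encode its kinases, RB1CC1 (FIP200) the scaffold and ATG13 the regulatory subunit. RB1CC1 read 13.19 on the NC array, 12.72 with the mimic, 12.54 with siPVT1-1 and 12.65 with siPVT1-2. The NC array was the highest, and the differences of -0.47, -0.65 and -0.54 stayed within 1.56-fold. ULK1 read 12.01, 11.89, 11.97 and 11.68 in the same order, and ULK2 read 10.52, 10.42, 10.37 and 10.26. Both kinases lay below NC on all treated arrays, by at most 0.32. ATG13 differed by -0.25, 0.04 and -0.28. Its other probe, below the signal level, gave -1.06 with the mimic.

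The class III lipid kinase complex marks the forming membrane with phosphatidylinositol 3-phosphate. PIK3C3 (VPS34) encodes its kinase, BECN1 (Beclin 1) a regulatory subunit, and ATG14 the subunit that directs the complex to autophagosome formation. ATG14 read 13.76 on the NC array, 13.17 with the mimic, 14.10 with siPVT1-1 and 13.62 with siPVT1-2. The mimic array was the lowest and the siPVT1-1 array the highest, with NC between them. At 0.92, its range over the treated arrays was the widest of the 31 genes, beside a median of 0.31 for the 31 and 0.32 for all compared genes. BECN1 read 13.40, 12.99, 13.20 and 13.27, lowest with the mimic. PIK3C3 stayed between 11.72 and 11.85 on the 4 arrays.

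Membrane for the autophagosome comes in part through ATG9A, a lipid scramblase of small vesicles, and through ATG2A and ATG2B, which transfer lipid. WIPI1 and WIPI2 bind the phosphoinositide on the new membrane, and WIPI2 recruits ATG16L1. ATG9A read 13.07 on the NC array, 12.96 with the mimic, 13.59 with siPVT1-1 and 13.10 with siPVT1-2, so that siPVT1-1 stood above the other arrays. ATG2A likewise differed by 0.47 with siPVT1-1 and by 0.03 and 0.05 on the other treated arrays, while ATG2B stayed within 0.18 of NC. These shifts were seen with 1 of the siRNAs against PVT1 and not with the other at that size.

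WIPI1 read 12.04 on the NC array, 11.24 with the mimic, 11.73 with siPVT1-1 and 11.92 with siPVT1-2. It was lowest with the mimic, by 1.73-fold. WIPI2 had 4 probes, and they went different ways. Its brightest probe read 13.67, 14.14, 14.22 and 14.23, above NC on every treated array, and a further probe differed from NC by 0.36, 0.31 and 0.18. Another bright probe read 13.38 on the NC array, 12.08 with the mimic, 13.16 with siPVT1-1 and 12.90 with siPVT1-2. It was lower with the mimic, by 2.46-fold, in the direction opposite to the brightest probe. Which WIPI2 transcripts each probe detects was not analysed here, so no direction is given for the gene.

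**Figure D2:**
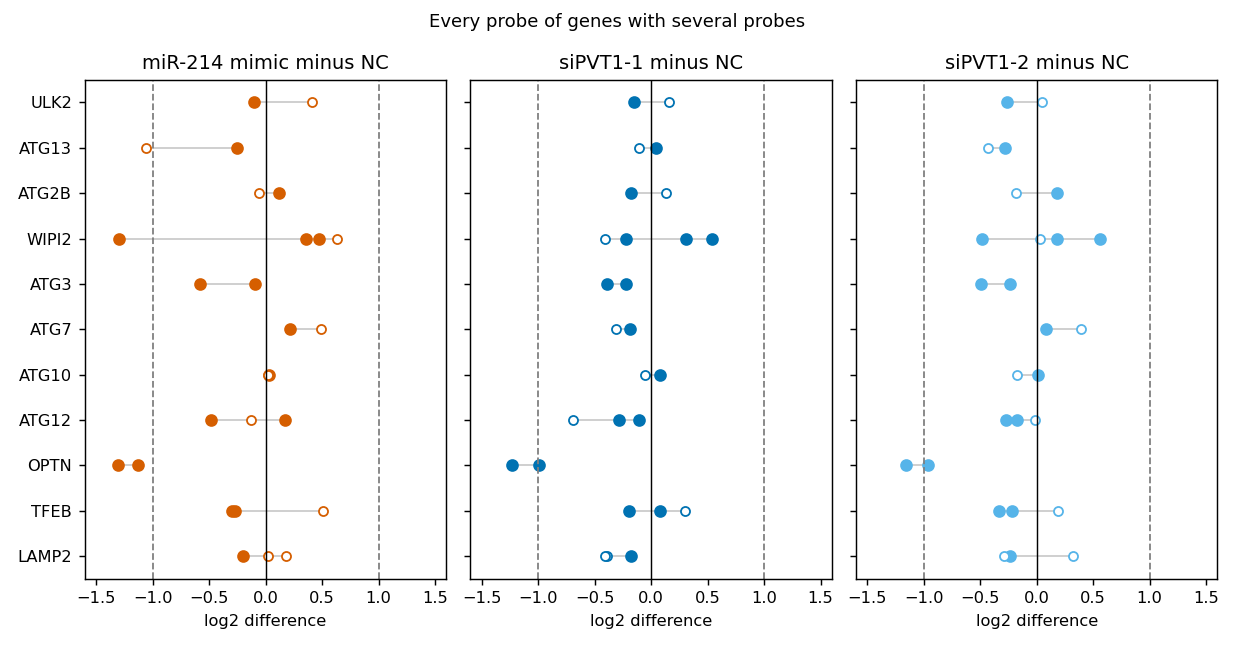
Log2 difference from NC (x axis) of every probe of the 11 genes with several probes, 1 panel per treated array. Filled points are probes above the signal level, open points lie below it, and dashed lines mark 2-fold. Both OPTN probes lie near or past -1, whereas the WIPI2 probes spread from -1.30 to 0.63 with the mimic.

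The conjugation machinery couples ubiquitin-like proteins to the membrane lipid. ATG7 is the activating enzyme, ATG3 and ATG10 are conjugating enzymes, ATG12, ATG5 and ATG16L1 form the complex that guides the final step, and the ATG4 proteases prime and release the ATG8 proteins. None of the 8 compared genes of this step was 2-fold from NC. They spanned -0.58 to 0.47 with the mimic, -0.23 to 0.26 with siPVT1-1 and -0.49 to 0.36 with siPVT1-2. ATG3 read 15.60 on the NC array, 15.02 with the mimic, 15.38 with siPVT1-1 and 15.11 with siPVT1-2, below NC on all 3. Its other probe above the signal level differed by -0.09, -0.39 and -0.24. ATG16L1 read 10.60, 10.08, 10.68 and 10.34, lowest with the mimic. ATG4C read 11.55, 12.03, 11.63 and 11.91, highest with the mimic. ATG7, ATG10, ATG12, ATG4A and ATG4D differed from NC by no more than 0.26 on any array, although another bright probe of ATG12 gave -0.48 with the mimic. ATG5 read 7.40, 8.0, 7.33 and 7.77, and ATG4B read 9.41, 9.54, 9.53 and 9.21. Both were too dim for their differences to be sized.

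The ATG8 family proteins sit on the autophagosome membrane, bind cargo receptors and help the membrane to grow and fuse. MAP1LC3B encodes LC3B, whose lipid-coupled form is widely used to count autophagosomes. The deposited MAP1LC3B intensity was 17018 on the NC array, 9418 with the mimic, 8122 with siPVT1-1 and 8425 with siPVT1-2. NC stood above the treated arrays, which lay close to each other. The normalized levels were 14.07, 13.17, 12.99 and 13.06, and the differences of -0.90, -1.08 and -1.01 correspond to 1.86-, 2.11- and 2.02-fold lower levels. The mimic thus fell short of the 2-fold rule by a small margin, and its difference from the mean of the siRNA arrays was within the 0.18 that the treated arrays spanned. Among the 10666 genes, MAP1LC3B ranked 398th, 155th and 124th from the lowest difference with the mimic, siPVT1-1 and siPVT1-2.

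The 3 GABARAP genes of the family did not pass the 2-fold rule on any array. GABARAP read 15.87, 15.42, 15.94 and 15.56 on the NC array, then with the mimic, siPVT1-1 and siPVT1-2. GABARAPL1 read 11.23, 11.25, 11.27 and 11.56, and GABARAPL2 read 15.17, 15.30, 15.50 and 15.14. Each of the 3 stayed within 0.45 of NC on every array. Outside the 33 genes, MAP1LC3A, a paralog, read 10.68, 9.51, 9.88 and 10.36. It lay below NC on all treated arrays and was lower, by the 2-fold rule, with the mimic, as were 2.84% of all compared genes. MAP1LC3B2, a near-identical copy of MAP1LC3B, differed by 0.32, -0.44 and -0.10. MAP1LC3B had 1 probe, and whether it also binds the copy's transcript was not tested.

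Cargo receptors carry a site for ubiquitin and a site for the ATG8 proteins. SQSTM1 (p62) and NBR1 gather ubiquitin-marked protein aggregates, and OPTN (optineurin) serves the removal of damaged mitochondria and of bacteria. OPTN had deposited intensities of 4790 on the NC array, 2114 with the mimic, 2314 with siPVT1-1 and 2307 with siPVT1-2. The treated arrays lay near each other and all under NC. After normalization the differences were -1.13, -0.99 and -0.96, or 2.18-, 1.98- and 1.95-fold lower levels, so that the mimic passed the 2-fold rule and the siRNAs stood just inside it. A second OPTN probe, also above the signal level, read 12.20, 10.89, 10.97 and 11.04. With that probe the differences of -1.31, -1.23 and -1.16 exceeded 2-fold on all 3 treated arrays.

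SQSTM1 read 11.93 on the NC array, 11.77 with the mimic, 11.93 with siPVT1-1 and 11.73 with siPVT1-2, and NBR1 read 13.73, 13.48, 13.45 and 13.68. Neither was more than 0.29 from NC. Among 15 compared receptors outside the 33 genes, CALCOCO2 (NDP52), a receptor for bacteria and damaged mitochondria like OPTN, read 10.79 on the NC array, 9.88 with the mimic, 9.57 with siPVT1-1 and 9.56 with siPVT1-2. It was lower with both siRNAs, by 2.32- and 2.34-fold, and by 1.87-fold with the mimic. With siPVT1-1 and siPVT1-2, 1.72% and 1.2% of all compared genes were lower. BNIP3, a mitochondrial receptor induced by low oxygen, went the other way. It read 12.53, 13.63, 13.25 and 13.32 and was higher with the mimic, where 1.95% of all compared genes were.

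**Figure D3:**
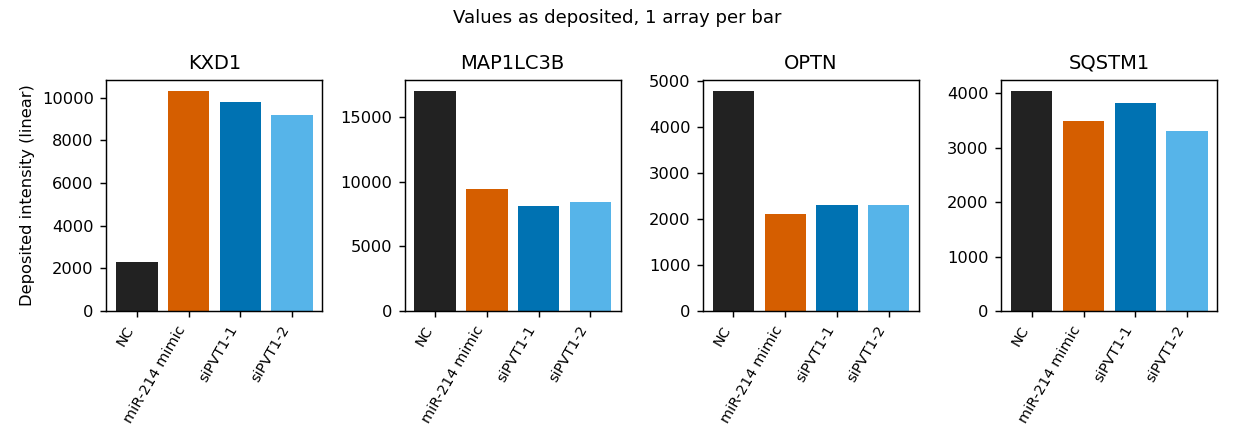
Intensity as deposited (linear y axis from 0, each panel with its own scale) of KXD1, MAP1LC3B, OPTN and SQSTM1, with 1 bar per array and no error bars because each group held 1 array. The NC bar is the lowest for KXD1 and the highest for MAP1LC3B and OPTN, while the SQSTM1 bars run from 3316 to 4049.

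TFEB encodes a transcription factor that drives many lysosomal and autophagy genes, and LAMP1 and LAMP2 encode the abundant membrane proteins of the lysosome. LAMP1 read 17.08 on the NC array, 16.59 with the mimic, 16.71 with siPVT1-1 and 16.70 with siPVT1-2. All treated arrays lay under NC, by 0.37 to 0.48. LAMP2 read 13.13, 12.93, 12.94 and 12.89, also under NC on all 3. TFEB read 12.56, 12.28, 12.64 and 12.34, within 0.27 of NC. Another 28 genes for lysosomal enzymes, membrane proteins and factors related to TFEB were compared. Of these, the protease gene TPP1 and the ceramidase gene ASAH1 were lower with the mimic, by -1.22 and -1.11. With the mimic, 2.84% of all compared genes were lower. A second TPP1 probe gave -0.15 there.

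KXD1 encodes a subunit of BORC. Its deposited intensity was 2293 on the NC array, 10319 with the mimic, 9781 with siPVT1-1 and 9202 with siPVT1-2. The NC array stood alone at the bottom, and the treated arrays lay close together. The normalized levels were 11.09, 13.31, 13.27 and 13.20, which gives differences of 2.22, 2.17 and 2.10, or 4.65-, 4.51- and 4.3-fold. KXD1 ranked 6th, 4th and 6th highest of the 10666 genes for the mimic, siPVT1-1 and siPVT1-2. The treated arrays spanned 0.11. A rule was chosen after these values were seen, a distance from NC of at least 4-fold with the treated arrays within 0.25 of each other. It was met by KXD1 alone among genes above NC and by 1 gene below NC. STARD7, the highest of all compared genes in each difference from NC, at 5.6, 5.89 and 5.95, did not meet it. The rule was set around KXD1, so meeting it adds no support. KXD1 had 1 probe, so the value rests on 1 spot on the NC array.

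Of 20 other genes of lysosome movement listed, 17 were compared, and none was 2-fold from NC on any array. Over all compared genes, the shares at least 2-fold above and below NC were 1.95% and 2.84% for the mimic array. For siPVT1-1 they were 1.25% and 1.72%, and for siPVT1-2 they were 1.33% and 1.2%. With such shares few of 17 genes would pass, so their absence does not set this list apart. The median differences of the 17 were 0.07, 0.01 and 0.12, beside -0.02, 0.01 and -0.01 for all compared genes. The list held other BORC subunits, the ARL8 GTPases, kinesins and the RAB7A machinery that moves lysosomes toward the cell centre. Among the subunits of BORC, BORCS7 differed by -0.56, -0.87 and -0.71. BLOC1S2 differed by -0.27, -0.77 and -0.48, and both lay below NC on all treated arrays. SNAPIN differed by 0.34, 0.73 and 0.44. BORCS6 differed by 0.12, 0.6 and 0.34 and BORCS8 by 0.19, 0.47 and 0.33, so that these also lay above NC. BLOC1S1 differed by -0.42, 0.04 and -0.26, and BORCS5 lay below the signal level. The compared BORC subunits listed here did not reach 2-fold and were named with their values known.

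**Figure D4:**
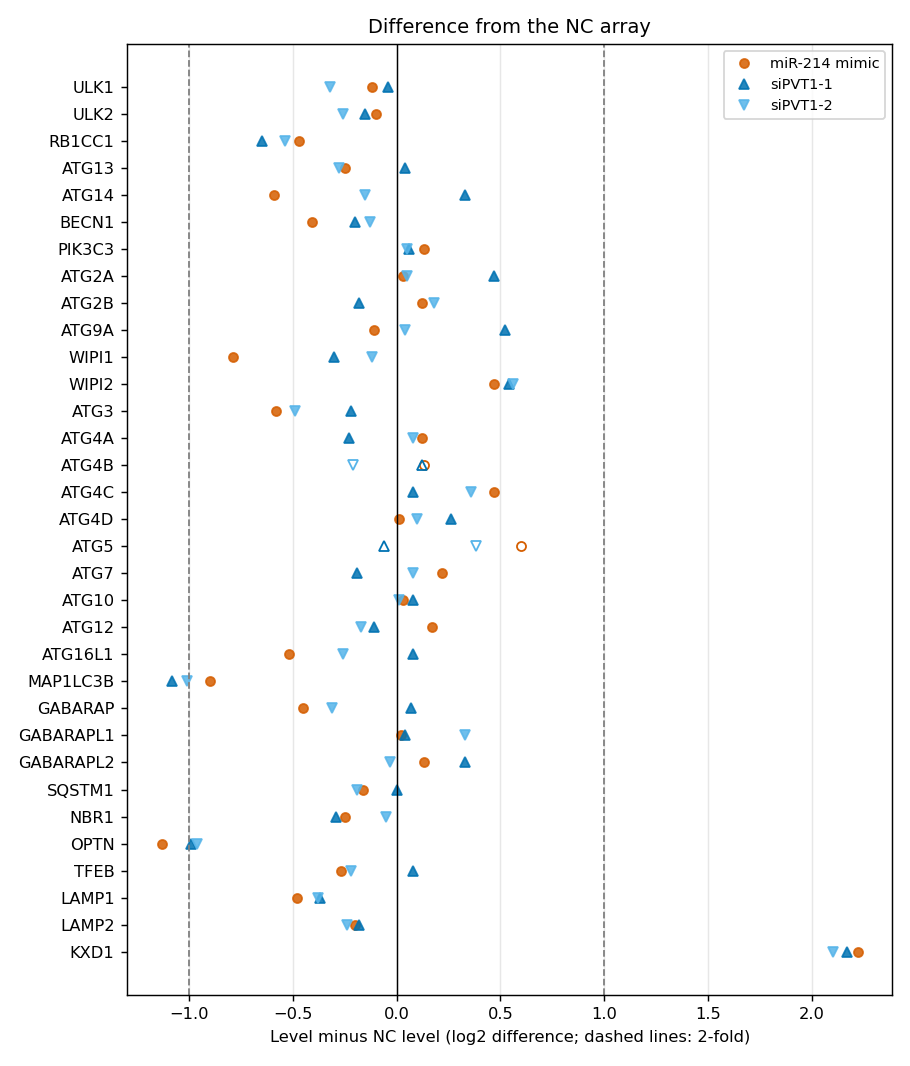
Log2 difference from NC (x axis) of the 33 genes (rows) on the 3 treated arrays, 1 point per array, with dashed lines at 2-fold and open points for the genes below the signal level. KXD1 lies at 2.10 to 2.22, MAP1LC3B at -0.90 to -1.08 and OPTN at -0.96 to -1.13.

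Differences between the treated arrays do not use the NC array. None of the 31 genes was 2-fold apart between siPVT1-1 and siPVT1-2, where 0.497% of all compared genes were. The widest of them was ATG9A, at 0.48. None was 2-fold apart between the mimic and the mean of the siRNA arrays, where 1.82% of all compared genes were. ATG14 had the widest difference there, at -0.68. KXD1, MAP1LC3B and OPTN spanned 0.11, 0.18 and 0.17 over the treated arrays. These 3 genes had been picked by their distance from NC. A span under 0.25 was shared by 13 of the 31 genes, these 3 included.

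The kinases mTORC1 and AMPK control the ULK complex from outside the 33 genes, by repressing and by activating it. Of 28 compared genes of this control, SESN2 (sestrin 2), a stress-induced inhibitor of mTORC1, was lower on all 3 treated arrays, by -1.11, -2.43 and -1.66. Of all compared genes, 0.609% were lower on all 3. SESN2 is a target of the stress factor ATF4. In mouse fibroblasts short of amino acids, 12 of the 33 genes are known to need ATF4 or its partner CHOP (DDIT3) for induction, among them MAP1LC3B, SQSTM1 and ATG3. Of those 12, 11 were compared, and MAP1LC3B was the 1 that passed 2-fold. It did so with siPVT1-1 and siPVT1-2, where 1.72% and 1.2% of all compared genes were lower. The medians of the 11 were -0.25, -0.11 and -0.18 for the mimic, siPVT1-1 and siPVT1-2. Those of the 31 genes were -0.12, -0.001 and -0.14, and those of all compared genes -0.02, 0.01 and -0.01.

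Other genes of this stress response moved with these arrays. ATF4 differed by -0.42, -0.71 and -0.64, and DDIT3 by -0.62, -2.36 and -1.26. The targets ASNS (asparagine synthetase) and TRIB3 (a pseudokinase) differed by -1.94, -3.10 and -2.52 and by -1.0, -2.07 and -1.59. CHAC1, a glutathione-degrading enzyme, differed by -1.17, -3.67 and -1.58, and ATF3, a transcription factor, by -0.25, -1.23 and -0.50. By the brightest probe of each, all 6 lay under NC on every treated array and farthest under it with siPVT1-1. Second probes above the signal level gave 0.02, 0.15 and 0.12 for ATF4, and -0.46, -2.06 and -1.4 for TRIB3. MAP1LC3B differed by -0.90, -1.08 and -1.01, and its treated arrays spanned 0.18. SQSTM1 read 11.93 on the NC array and 11.77, 11.93 and 11.73 on the treated arrays. The part of this response in the MAP1LC3B difference was not tested.

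**Figure D5:**
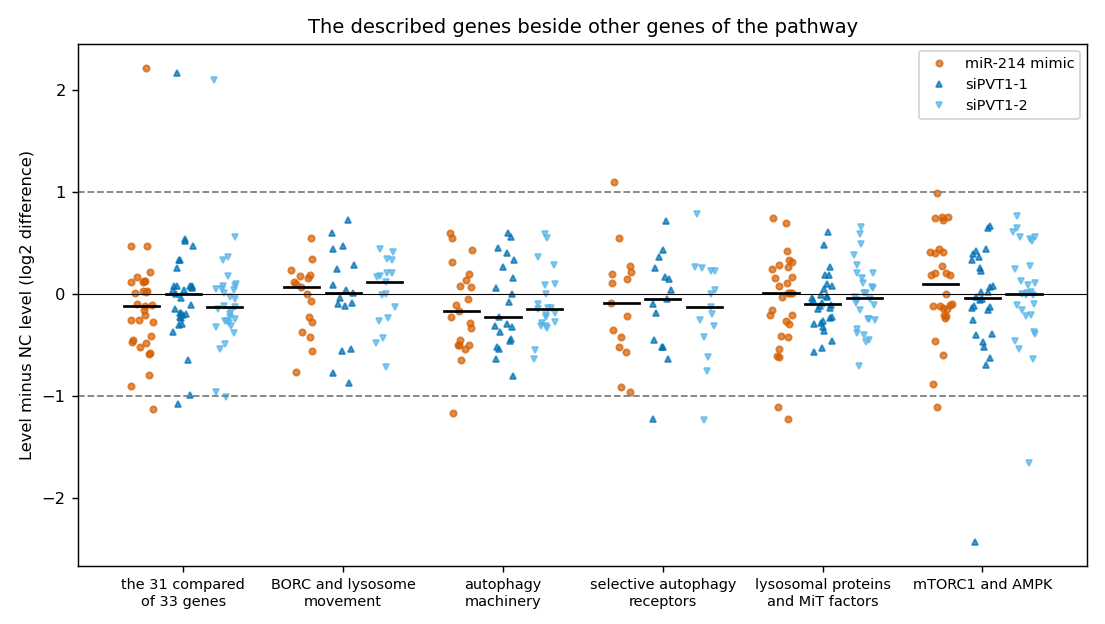
Log2 difference from NC (y axis) of the 31 compared genes and of 5 lists of other pathway genes (x axis), 1 point per gene and 1 colour per treated array, with bars at the medians and dashed lines at 2-fold. The points past 2 in the first group are KXD1, and the points at -2.43 and -1.66 in the last are SESN2 with the siRNAs.

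The promoters of the 3 genes that passed 2-fold, and of LAMP1, are shown to give the sequence context of these genes. RefSeq windows of GRCh38.p14 covering 250 bases before and 50 after the start were found for 30 of the 33 genes. They were searched on both strands for CACGTG, the core bound by TFEB, for TGACG (read as CGTCA on the other strand), the core bound by factors of the CREB and ATF family, for TGATGNAA (read there as TTNCATCA), the form bound by ATF4 with a C/EBP partner, and for TGACTCA (read there as TGAGTCA), bound by AP-1. Capitals mark every match, and only the bases before the start are printed. The windows lie at chr19:18557620-18557869 (KXD1), chr16:87392086-87392335 (MAP1LC3B), chr10:13099832-13100081 (the first of 2 OPTN windows) and chr13:113296989-113297238 (LAMP1), all on the plus strand.
KXD1: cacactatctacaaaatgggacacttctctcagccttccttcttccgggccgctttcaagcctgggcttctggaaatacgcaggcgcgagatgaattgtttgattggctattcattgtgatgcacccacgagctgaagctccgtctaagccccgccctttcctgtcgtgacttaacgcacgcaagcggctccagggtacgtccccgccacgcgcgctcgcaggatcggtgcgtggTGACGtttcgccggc
MAP1LC3B: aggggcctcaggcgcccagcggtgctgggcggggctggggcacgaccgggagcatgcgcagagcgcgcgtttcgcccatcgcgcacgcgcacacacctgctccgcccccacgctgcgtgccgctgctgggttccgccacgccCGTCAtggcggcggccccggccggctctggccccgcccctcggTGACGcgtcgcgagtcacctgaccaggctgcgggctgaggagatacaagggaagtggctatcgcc
OPTN: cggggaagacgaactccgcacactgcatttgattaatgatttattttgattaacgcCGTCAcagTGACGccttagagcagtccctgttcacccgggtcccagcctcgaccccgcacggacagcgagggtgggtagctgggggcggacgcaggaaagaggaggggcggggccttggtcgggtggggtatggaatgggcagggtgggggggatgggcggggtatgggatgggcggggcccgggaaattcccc
LAMP1: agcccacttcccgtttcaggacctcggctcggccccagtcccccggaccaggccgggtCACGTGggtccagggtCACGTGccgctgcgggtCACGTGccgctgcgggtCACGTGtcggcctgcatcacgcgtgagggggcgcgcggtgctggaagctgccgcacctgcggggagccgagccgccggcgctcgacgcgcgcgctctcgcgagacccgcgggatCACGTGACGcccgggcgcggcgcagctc

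MAP1LC3B held TGACG or its reverse complement 108 and 65 bases before the start, OPTN 194 and 186 bases before, and KXD1 15 bases before. This short core was found in 14 of the 30 genes and in 40.5% of the 8755 compared genes with a window, so its presence does not mark the 3 genes out. LAMP1 held CACGTG 6 times, 192, 176, 159, 142, 28 and 1 bases before the start, where the copy at 28 overlapped a TGACG and the copy at 1 runs past the printed bases. The CACGTG core was found in 3 of the 30 genes (ATG14, ATG3 and LAMP1) and in 12.7% of compared genes, or 7.26% of all 35116 windows. TGATGNAA was found in none of the 30 and in 2.86% of compared genes, and TGACTCA in none and in 4.75%. A match describes the letters only.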

How the data were processed

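Total RNA of 4 transfected cultures was measured on 1 array each. The authors deposited linear intensities, which hold values below 0 and so have had background subtracted (software: not given in the sources used here). Quantile normalization of the deposited values (limma 3.58.1, R 4.3.3) came first, values under 64 were then raised to 64, and log2 followed. Of 28264 probes, 25893 had 1 gene symbol, 0 had several and 2371 were unnamed here. Symbols were updated by Entrez identifier to RefSeq's GRCh38.p14 table. Each gene took the values of the probe with the highest mean. Genes with a mean above 9.72, the median of all probes, were compared; 2 at the floor on an array were left out. Genes were named by this rule: every member, genes of other pathway lists at least 2-fold from NC (up to 4 a list, largest first), and all 6 stress genes. MAP1LC3B2, STARD7, the BORC subunits other than KXD1 and the single cell type markers were named outside it, after their values were seen. The members and lists were chosen with earlier results of these data known. The counting was tested on simulated data. Alternatives were cyclic loess, median centring, the deposited values, a floor of 16, averaged probes, a stricter filter (75th percentile) or none, thresholds of 1.5- and 3-fold, and limma with the siPVT1 arrays as 1 group. The number of arrays limits the precision.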

Additional observations from a re-analysis of the deposited data

How the results depend on the processing

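No alternative turned the direction of a called gene. Over the scalings, floors and probe rules, the KXD1 difference from NC stayed between 2.0 and 2.33, MAP1LC3B between -1.08 and -0.69 and OPTN between -1.22 and -0.81. Because MAP1LC3B and OPTN lie at the 2-fold limit, the counts of the 31 genes past it, 2 on each treated array, changed with several settings. Median centring, which raised the median of all compared genes to 0.11, 0.11 and 0.16 for the mimic, siPVT1-1 and siPVT1-2, left 1 gene with each siRNA, and cyclic loess left 1 with siPVT1-2. The filter at the 75th percentile left 1 of 15 with the mimic, beside 1.77% of all genes compared there higher and 2.3% lower. At 3-fold, 1 gene (KXD1) remained on each array. Of all compared genes, 0.23% were higher and 0.55% lower at 3-fold with the mimic. The shares were 0.14% and 0.54% with siPVT1-1, and 0.21% and 0.35% with siPVT1-2. At 1.5-fold there were 5 with the mimic, 4 with siPVT1-1 and 1 (ATG14) between the mimic and the siRNA mean. Beside them, 9.46% of all compared genes were higher and 9.42% lower at 1.5-fold with the mimic, 6.72% and 6.45% with siPVT1-1, and 3.7% and 4.31% against the siRNA mean, so these counts set nothing apart. The values as deposited gave 3 for each siRNA, and so did the mean of a gene's probes, by adding OPTN. The median of the list became 0.082 with siPVT1-2 under median centring, and -0.27 with the mimic and -0.11 with siPVT1-1 under the 75th-percentile filter. Of 775 single differences recomputed, 16 moved, by more than 0.288, the standard deviation of the differences between the siPVT1 arrays. Only differences of at least 2-fold could be scored as reversed, and 0 of them were. A smaller difference that changed sign was not scored as reversed. Limma with both siPVT1 arrays as 1 group gave differences from NC of 2.14 for KXD1, -1.05 for MAP1LC3B and -0.97 for OPTN. It has 1 residual degree of freedom, treats different siRNAs as replicates and does not measure the spread of NC, so it supports no difference from NC. No paired analysis was possible because each group holds 1 array.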
